A study of Mus musculus with 14 samples.

Results

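Fga, Fgb and Fgg, which encode the chains of fibrinogen, F3 (tissue factor), Thbd (thrombomodulin), Plat and Plau (the tissue-type and urokinase-type plasminogen activators) and Plaur (the receptor of urokinase) were followed in the mouse kidney after ischemia-reperfusion injury (IRI). They were taken by name as genes of fibrinogen, coagulation and plasminogen activation. The rule uses no measured value, but the names were chosen with earlier results of these data known. They are 8 of the 24411 gene symbols counted, and all 8 were among the 14300 genes that passed the low-count filter. RNA of kidneys from male C57/B6 mice, 8 weeks old, was sequenced in 4 libraries of day 0, 5 of day 1 and 5 of day 3. The days count from the renal IRI, an operation in which blood flow is stopped and then restored. The labels name no transgene, knockout or drug in any group. Day 0 kidneys are named as controls in their library names, but it is not given in the sources used here whether these mice were operated on, how long ischemia lasted for each library, or whether every library is a separate animal. The p-values therefore measure only the spread between these libraries, which may be technical in part.

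Tissue factor, a membrane protein of cells that lie outside the bloodstream, binds circulating factor VII and starts coagulation. The cascade ends in thrombin, which cleaves fibrinogen so that it polymerizes into fibrin. Thrombomodulin on endothelial cells captures thrombin and turns it toward activation of protein C, an anticoagulant. The plasminogen activators cleave plasminogen to plasmin, which dissolves fibrin, and the urokinase receptor holds that activity at the cell surface. Fibrinogen is best known as a hepatocyte product of the acute-phase response, while urokinase is a normal product of the kidney tubule.

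The fibrinogen genes lie side by side on chromosome 3 of GRCm38, with Fgg at chr3:83007724-83015049 and Fga at chr3:83026076-83033627 on the plus strand and Fgb at chr3:83040141-83049863 on the minus strand. F3 lies farther along the same chromosome at chr3:121723537-121735048. Plat is at chr8:22757727-22782844, Plau at chr14:20836660-20843385, Plaur at chr7:24462484-24475968 and the intronless Thbd, with 1 exon, at chr2:148404466-148408188. Fgg shares its span with Gm30097, a long noncoding RNA on the opposite strand, and none of the other 7 overlaps another annotated gene. The counts used here are those of the gene's own strand, and the opposite strand of Fgg held at most 16 reads in a library.

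The sequence before the start of the gene was available for 5 of the 8 genes (RefSeq, GRCm38.p6, up to 250 bases). They are printed because the fibrinogen genes varied together across libraries and because F3 and Plaur did so too, and each is written 5′ to 3′ along the strand of its gene. Capitals mark matches to motifs of transcription factors, on either strand. The Fga window is 173 bases long, since the 77 bases nearest the RefSeq start belong to the gene in GENCODE's annotation and were left off.
Fgg, chr3:83007474-83007723, plus strand.
Fgg: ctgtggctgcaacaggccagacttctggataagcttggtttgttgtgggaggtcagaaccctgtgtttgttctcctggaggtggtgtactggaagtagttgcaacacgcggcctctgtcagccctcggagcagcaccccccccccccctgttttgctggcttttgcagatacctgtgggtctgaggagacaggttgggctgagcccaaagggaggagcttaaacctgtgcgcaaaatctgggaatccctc
Fga, chr3:83025903-83026075, plus strand.
Fga: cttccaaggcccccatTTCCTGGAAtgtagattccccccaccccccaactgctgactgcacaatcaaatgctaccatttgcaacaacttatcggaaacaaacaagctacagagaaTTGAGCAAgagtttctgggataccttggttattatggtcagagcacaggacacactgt
Fgb, chr3:83049864-83050113, minus strand.
Fgb: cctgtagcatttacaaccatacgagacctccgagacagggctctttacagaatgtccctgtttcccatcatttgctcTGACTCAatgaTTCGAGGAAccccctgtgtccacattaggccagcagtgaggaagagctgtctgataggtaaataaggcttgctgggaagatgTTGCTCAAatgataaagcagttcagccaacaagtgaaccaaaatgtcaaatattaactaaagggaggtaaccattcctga
F3, chr3:121723287-121723536, plus strand.
F3: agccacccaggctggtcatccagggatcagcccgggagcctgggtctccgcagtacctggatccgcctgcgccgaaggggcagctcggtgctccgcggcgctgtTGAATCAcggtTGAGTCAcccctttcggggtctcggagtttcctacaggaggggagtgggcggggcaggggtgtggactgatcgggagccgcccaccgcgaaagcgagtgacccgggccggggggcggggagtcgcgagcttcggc
Plaur, chr7:24462233-24462482, plus strand.
Plaur: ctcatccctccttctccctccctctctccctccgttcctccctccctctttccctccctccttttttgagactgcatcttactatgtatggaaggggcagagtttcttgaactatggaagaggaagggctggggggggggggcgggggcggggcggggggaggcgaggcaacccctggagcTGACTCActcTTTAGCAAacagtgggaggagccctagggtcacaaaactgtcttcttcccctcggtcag

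The motifs searched were TTCNNNGAA (STAT), TGANTCA (AP-1), TTGCNNAA (C/EBP), TATAAA (the box of that name), and the NF-kB and HNF1 motifs. Fga held a STAT match (TTCCTGGAA, 234 to 226 bases before the RefSeq start) and a C/EBP match (TTGAGCAA, 135 to 128 bases before it). Fgb held an AP-1 match (TGACTCA, 173 to 167), a STAT match (TTCGAGGAA, 162 to 154) and a C/EBP match (TTGCTCAA, 80 to 73). Fgg held none of these letters in this window. F3 held AP-1 matches at 146 to 140 bases (TGAATCA) and at 135 to 129 bases (TGAGTCA) before its start, and Plaur held an AP-1 match (TGACTCA, 69 to 63) beside a C/EBP match (TTTAGCAA, 59 to 52). No match overlapped another. Of 32851 windows of 250 bases in the same table, 7.02% held the STAT motif, 6.75% the AP-1 motif, 9.56% the C/EBP motif, 12.4% the TATAAA motif, 3.9% the NF-kB motif and 0.0609% the HNF1 motif. The matches describe the letters of these windows only, and no binding was measured.

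Each library held between 12485579 and 20476979 reads on genes. The libraries of day 1 and day 3 carry a number of either 1 or 3 digits in their names. The 1-digit libraries are all 4 of day 0, replicates 3, 4 and 5 of day 1 and replicates 4 and 5 of day 3, and the 3-digit libraries are replicates 1 and 2 of day 1 and replicates 1, 2 and 3 of day 3. The format may mark a technical batch, which no label states, and against day 0 the 3-digit format and the day cannot be told apart. Levels are a gene's reads relative to all reads on genes, in CPM, scaled between libraries by TMM. Log2 fold changes and adjusted p-values (Benjamini-Hochberg over the 14300 genes) are from edgeR's quasi-likelihood test, in which an adjusted p under 0.05 is a change. The test gives no standard error. Each SE printed here is the absolute log2 fold change divided by the square root of its F statistic, which is an approximation. Both later days are compared with the same 4 libraries of day 0. In bulk tissue, fewer cells of a type and less RNA per cell cannot be told apart.

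**Figure D1:**
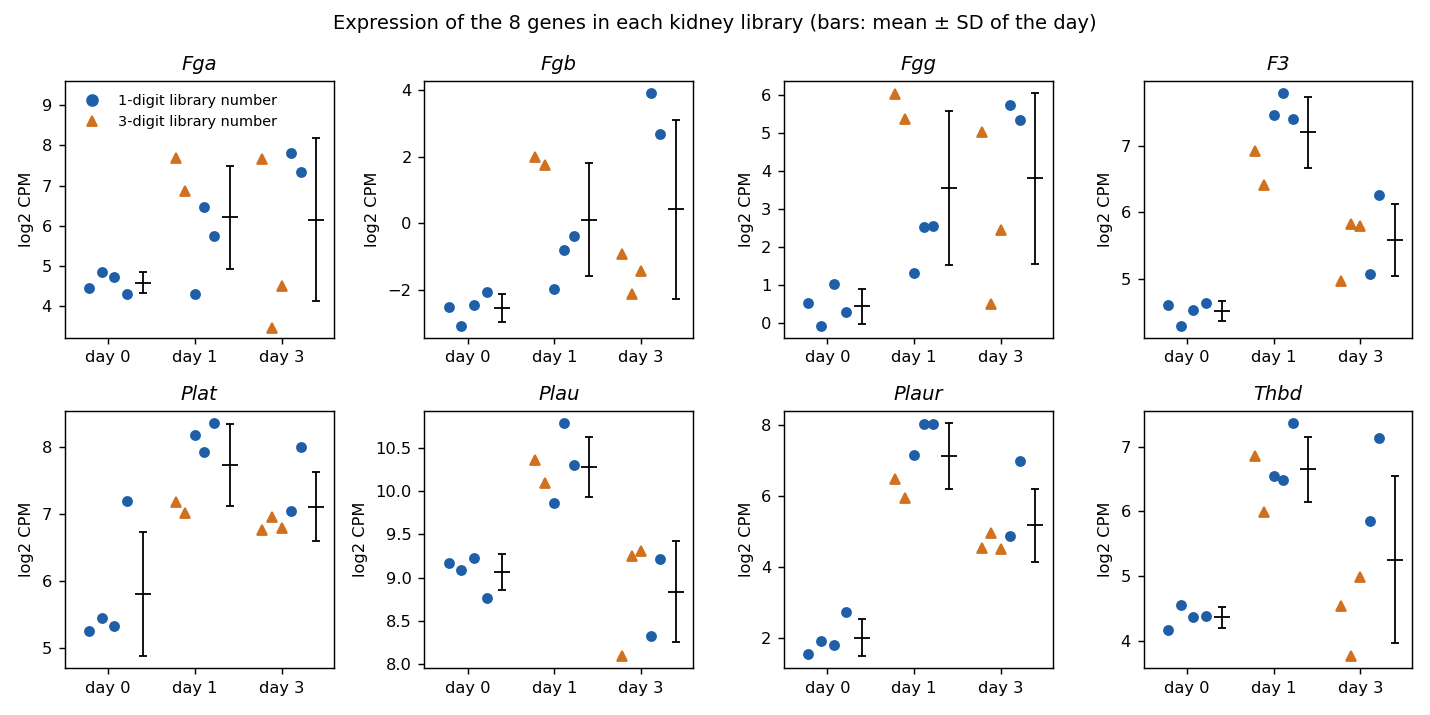
Level of each of the 8 genes as log2 CPM (vertical axis) in every library, by day (horizontal axis); circles are 1-digit libraries, triangles 3-digit libraries, and the bars give the mean ± SD of the day. At day 1 the libraries of Fgb, Fgg, F3, Plau, Plaur and Thbd stood above every day 0 library, and at day 3 those of the fibrinogen genes spread from within or below the day 0 range to far above it.

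The fibrinogen chains were higher after IRI in some kidneys and close to day 0 in others. Fgg rose at day 1 (log2 fold change 4.22, SE 1.17, adjusted p = 0.0106) and was higher at day 3 (4.36, SE 1.17, adjusted p = 0.0120). Fga was higher at day 3 (2.36, SE 0.80, adjusted p = 0.0344) and did not pass the test at day 1 (2.00, SE 0.78, adjusted p = 0.0533). Fgb, which was barely detected at day 0, was higher on both days. None of the chains differed between day 3 and day 1 past the threshold.

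Fga, the alpha chain, was at 21.9, 28.8, 26.7 and 19.6 CPM in replicates 1 to 4 of day 0 (mean 24.3 ± 4.24, SD, n = 4). At day 1 its level was 205, 117, 19.6, 88.1 and 53.8 CPM in replicates 1 to 5 (96.8 ± 70.8, SD, n = 5), and at day 3 it was 204, 10.9, 22.7, 225 and 162 CPM (125 ± 101, SD, n = 5). Replicate 3 of day 1 and replicates 2 and 3 of day 3 lay within or below the day 0 range, and the other 7 kidneys after IRI lay above it. The highest and lowest kidneys differed 10.5-fold within day 1 and 20.7-fold within day 3, against 1.47-fold within day 0. The groups therefore overlapped on both days. The call at day 3 was lost when any of 7 libraries was left out (all 4 of day 0, and replicates 1, 4 and 5 of day 3, adjusted p up to 0.0829), and the day 1 difference became a change without replicate 3 of day 1 (adjusted p = 0.0293), replicate 2 of day 3 (0.0216) or replicate 3 of day 3 (0.0402).

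Fgg, the gamma chain, was at 1.32, 0.824, 1.90 and 1.09 CPM at day 0 (mean 1.28 ± 0.456, SD, n = 4). It reached 65.0, 40.8, 2.39, 5.60 and 5.71 CPM at day 1 (23.9 ± 27.9, SD, n = 5) and 32.1, 1.30, 5.35, 52.7 and 40.7 CPM at day 3 (26.4 ± 22.4, SD, n = 5). Every day 1 kidney was above every day 0 kidney, whereas replicate 2 of day 3 was within the day 0 range. The 5 highest kidneys, replicates 1 and 2 of day 1 and replicates 1, 4 and 5 of day 3, are also the 5 highest for Fga.

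Fgb, the beta chain, had 1, 0, 1 and 2 reads in the day 0 libraries. Its level was 3.83, 3.22, 0.136, 0.457 and 0.643 CPM at day 1, from 71, 71, 2, 8 and 8 reads. At day 3 it was 0.407, 0.113, 0.248, 15.0 and 6.24 CPM, from 8, 2, 5, 223 and 85 reads. All day 1 kidneys were above all day 0 kidneys, and at day 3 the second replicate fell within the day 0 range. The fitted log2 fold changes were 4.65 at day 1 (SE 1.68, adjusted p = 0.0381) and 6.02 at day 3 (SE 1.69, adjusted p = 0.0147), and they depend on the prior count because day 0 is near 0. Per read on genes, the summed reads of day 1 were 31.3 times those of day 0 (95% exact interval 12 to 116) and those of day 3 were 62.6 times (24.2 to 231), where the intervals cover counting error only. The day 1 call was lost without any library of day 0 or without replicate 1 or 2 of day 1 (adjusted p up to 0.0897).

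Per kilobase of exon, Fgb was at most 0.488% of Fga at day 0, 0.410% to 2.17% at day 1 and 0.158% to 5.27% at day 3. Fgg per kilobase was 4.11% to 10.2% of Fga at day 0, 9.14% to 50.1% at day 1 and 17.1% to 36.1% at day 3. The share of Fgg relative to Fga was higher in every day 3 kidney than in every day 0 kidney, and at day 1 the lowest kidney, replicate 4, was within the day 0 range. These shares are levels per length and were not tested.

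Tissue factor and thrombomodulin, which act in opposite directions on coagulation, both rose at day 1. F3 rose with the smallest adjusted p of the 8 genes, by 2.76 on the log2 scale (SE 0.31, adjusted p = 3.32e-05), stayed higher at day 3 (1.15, SE 0.29, adjusted p = 0.00880), and fell from day 1 to day 3 by 1.61 (SE 0.27, adjusted p = 0.00337). Thbd rose at day 1 by 2.36 (SE 0.55, adjusted p = 0.00406) and did not pass the test at day 3 (1.37, SE 0.53, adjusted p = 0.0594).

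F3 was at 24.2, 19.4, 23.1 and 24.7 CPM in the day 0 libraries (mean 22.8 ± 2.38, SD, n = 4). It was at 122, 84.8, 176, 223 and 169 CPM at day 1 (155 ± 53.0, SD, n = 5) and at 31.2, 56.4, 55.5, 33.6 and 76.7 CPM at day 3 (50.7 ± 18.8, SD, n = 5). All 3 days were separate: the highest day 0 kidney was below the lowest day 3 kidney, and the highest day 3 kidney was below the lowest day 1 kidney. The changes at day 1 and day 3 and the fall between them passed the threshold with any library left out.

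Thbd was at 17.8, 23.4, 20.5 and 20.7 CPM at day 0 (mean 20.6 ± 2.28, SD, n = 4) and at 116, 63.2, 93.4, 89.3 and 165 CPM at day 1 (106 ± 38.4, SD, n = 5). At day 3 its level was 23.2, 13.4, 31.5, 57.5 and 140 CPM (53.1 ± 51.3, SD, n = 5). The day 1 kidneys were all above day 0, whereas the day 3 kidneys ran from below the day 0 range to the level of day 1. Replicate 5 was the highest of day 3 and replicate 4 the next, and without replicate 5 Thbd was lower at day 3 than at day 1 (log2 fold change -1.77, SE 0.36, adjusted p = 0.00533), against -0.99 (SE 0.48, adjusted p = 0.172) with all libraries. Without replicate 1 or 2 of day 3 the difference between day 3 and day 0 became a change (adjusted p = 0.0426 and 0.0137).

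Both plasminogen activators and the urokinase receptor rose at day 1. Their time courses were not tested against each other. In the fit by day alone Plaur had the largest log2 fold change at day 1 (5.29, SE 0.69), followed by Fgb (4.65, SE 1.68). Plaur went from one of the lowest levels of the 8 genes to one like that of F3. In the 3-digit libraries of day 1 Fgg was at 52.9 CPM, against 1.28 at day 0, and Plaur at 74.6, against 4.13. Plau, by far the most abundant of the 8 per length at day 0, rose and was back near its day 0 level at day 3. Plat rose at day 1 and stood between its day 0 and day 1 levels at day 3, differing from neither past the threshold (day 3 against day 1, -0.64, SE 0.40, adjusted p = 0.291).

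Plaur was at 2.82, 3.71, 3.41 and 6.59 CPM at day 0 (mean 4.13 ± 1.68, SD, n = 4). At day 1 it was at 87.8, 61.4, 143, 258 and 261 CPM (162 ± 93.5, SD, n = 5) and at day 3 at 23.1, 31.0, 22.7, 29.1 and 126 CPM (46.5 ± 44.9, SD, n = 5). Every kidney after IRI was above every day 0 kidney, and at day 3 replicate 5 stood far above the other 4. The log2 fold change was 5.29 at day 1 (SE 0.69, adjusted p = 8.97e-05) and 3.49 at day 3 (SE 0.64, adjusted p = 0.00126). Plaur fell from day 1 to day 3 (-1.80, SE 0.53, adjusted p = 0.0335), which did not hold when any of 7 libraries was left out (replicates 3, 4 and 5 of day 1 and replicates 1 to 4 of day 3, adjusted p up to 0.0860). The fall also did not pass edgeR's test when only the libraries of day 1 and day 3 were fitted (adjusted p = 0.0767).

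Plau was at 576, 545, 601 and 434 CPM at day 0 (mean 539 ± 73.7, SD, n = 4) and at 1311, 1094, 927, 1776 and 1256 CPM at day 1 (1273 ± 319, SD, n = 5). At day 3 it was at 272, 609, 636, 319 and 596 CPM (487 ± 176, SD, n = 5). The day 1 kidneys stood above both other days without overlap, and the day 3 kidneys lay on both sides of day 0. Plau rose at day 1 by 1.24 on the log2 scale (SE 0.27, adjusted p = 0.00284) and fell from day 1 to day 3 by 1.39 (SE 0.25, adjusted p = 0.00451). Between day 3 and day 0 the difference was -0.15 (SE 0.26, adjusted p = 0.685).

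Plat was at 38.1, 43.7, 40.0 and 147 CPM at day 0 (mean 67.2 ± 53.2, SD, n = 4), so that replicate 4 was within the range of the kidneys after IRI. It was at 145, 128, 291, 243 and 328 CPM at day 1 (227 ± 88.0, SD, n = 5) and at 108, 124, 110, 131 and 255 CPM at day 3 (146 ± 62.0, SD, n = 5). Replicates 1 to 3 of day 0 were below every kidney after IRI, and replicate 4 made the groups overlap. The rise at day 1 was 1.76 on the log2 scale (SE 0.45, adjusted p = 0.00673), and the difference at day 3 was 1.12 (SE 0.44, adjusted p = 0.0622). Without replicate 4 of day 0, Plat was also higher at day 3 (1.84, SE 0.36, adjusted p = 0.00350). That library stood apart in other measures too: its urothelial genes summed to 55.1 CPM against 3.88 to 11.7 in the other day 0 libraries and its hepatocyte markers to 323 against 129 to 163, and its chi-square per degree of freedom against them was 22.6 to 25.5, where theirs among each other were 5.82 to 8.20. The part of these in its Plat level was not tested.

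Per kilobase of exon, Plau was 39.9, 32.9, 39.7 and 7.79 times Plat in the day 0 kidneys, 8.40 to 23.8 times at day 1 and 6.15 to 15.2 times at day 3. Replicate 4 of day 0 fell within the range of day 3, and the other day 0 kidneys were above every kidney after IRI. The order of mean levels per kilobase at day 0 was Plau (228 CPM per kilobase), Plat (10.8), F3 (9.04), Fga (8.06), Thbd (5.53), Plaur (1.58), Fgg (0.613) and Fgb (0.0159). In replicate 4 Plat was at 23.5 CPM per kilobase, and the other 3 Plat values, from 6.10 up, lay below F3 (7.68 to 9.76) and overlapped Fga (6.51 to 9.58) and Thbd (4.77 to 6.28). At day 1 the order was Plau (538), Plaur (62.0), F3 (61.3), Plat (36.4), Fga (32.2), Thbd (28.3), Fgg (11.4) and Fgb (0.435), and from Plaur down to Fgg the ranges of neighbours overlapped. At day 3 Plau (206) was followed by Fga (41.5), Plat (23.4), F3 (20.0), Plaur (17.8), Thbd (14.3), Fgg (12.6) and Fgb (1.16), and from Fga down to Fgb the ranges of neighbours overlapped.

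**Figure D2:**
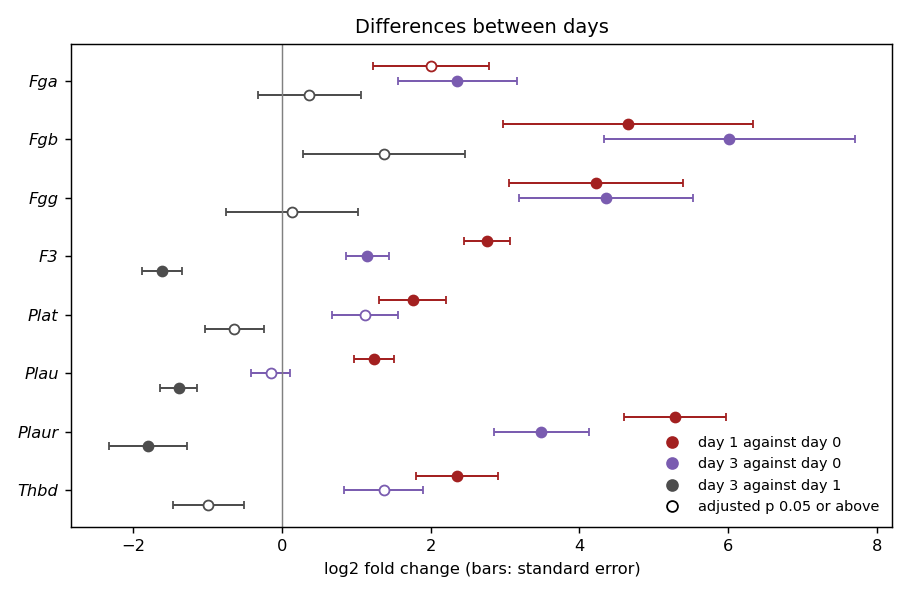
Log2 fold change (horizontal axis) of each gene for day 1 against day 0, day 3 against day 0 and day 3 against day 1; bars are standard errors, and open points have an adjusted p of 0.05 or above in edgeR's quasi-likelihood test. Day 1 differences were all to the right of 0, and F3, Plau and Plaur moved back toward 0 at day 3.

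At day 1, 7 of the 8 genes passed the test and all 7 were higher, where 42.1% of all genes tested changed and 23.3% were higher. Fga was the exception. The median log2 fold change of the 8 was 2.56, against 0.01 over all genes tested. At day 3, 5 of the 8 were higher than at day 0 (Fga, Fgb, Fgg, F3 and Plaur), where 33.3% of all genes changed and 19.5% were higher, and the medians were 1.86 and 0.05. From day 1 to day 3, F3, Plau and Plaur fell and no member rose, where 15.9% of all genes changed and 7.39% were lower, with medians of -0.82 and 0.02. The day 1 and day 0 libraries did not overlap for 6 of the 8 genes, all higher (42.0% of all genes, 21.5% higher), those of day 3 and day 0 for F3 and Plaur, both higher (33.4%, 16.9% higher), and those of day 3 and day 1 for F3 and Plau, both lower (7.61%, 3.47% lower). DESeq2's Wald test called all 8 at day 1 (46.7% of all genes), 7 at day 3, not Plau (38.7%), and the same 3 between the later days (23.1%).

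Within a day, some of the 8 genes differed between the 3-digit and the 1-digit libraries, and Fgb did so in opposite directions at day 1 and day 3. At day 1 the 3-digit libraries were higher in Fgb (log2 difference 3.09, SE 0.57, adjusted p = 0.00178) and Fgg (3.53, SE 0.83, adjusted p = 0.00635) and lower in F3 (-0.87, SE 0.32, adjusted p = 0.0479) and Plaur (-1.56, SE 0.50, adjusted p = 0.0268). At day 3 they were lower in Fgb (-5.32, SE 0.59, adjusted p = 0.00116), Thbd (-2.12, SE 0.41, adjusted p = 0.00730) and Plaur (-1.60, SE 0.47, adjusted p = 0.0338). These are 4 of 8 genes at day 1 and 3 of 8 at day 3, where 35.0% of all genes tested differed at day 1 (18.6% higher and 16.4% lower) and 18.5% at day 3 (8.22% lower). The calls of Fgb on both days and of Fgg at day 1 passed with any library left out. That of F3 was lost without any library of day 0 or day 1 or without replicate 3 of day 3 (adjusted p up to 0.311). That of Plaur was lost at day 1 without replicates 1, 2, 4 or 5 of that day (adjusted p up to 0.190) and at day 3 without replicates 2, 3 or 5 of that day (up to 0.788), and that of Thbd without replicate 5 of day 3 (-1.36, adjusted p = 0.116).

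The difference between formats itself differed between the days for Fgb (8.41 on the log2 scale, day 1 minus day 3, SE 0.82, adjusted p = 3.90e-04), Fgg (5.38, SE 1.14, adjusted p = 0.00709) and Thbd (1.75, SE 0.57, adjusted p = 0.0491), 3 of 8 genes where 17.6% of all genes did and 8.45% in that direction. For Thbd this did not hold when any of 10 libraries was left out (all 4 of day 0, replicates 1, 3 and 4 of day 1 and replicates 1, 2 and 5 of day 3, adjusted p up to 0.265). For Fga the values ran the same way as for the other chains, 1.58 at day 1 and -1.29 at day 3, without passing the test (adjusted p = 0.120 for the difference of 2.87). Replicate 1 of day 3, a 3-digit library with Fga at 204 CPM, bore most on this. Without it Fga differed at day 1 (1.58, adjusted p = 0.0190), at day 3 (-3.52, adjusted p = 0.00179) and between the days (5.10, adjusted p = 9.57e-04), and Fgg also differed at day 3 (-3.79, adjusted p = 0.00118). Plau differed least, by -0.13 and 0.15.

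**Figure D3:**
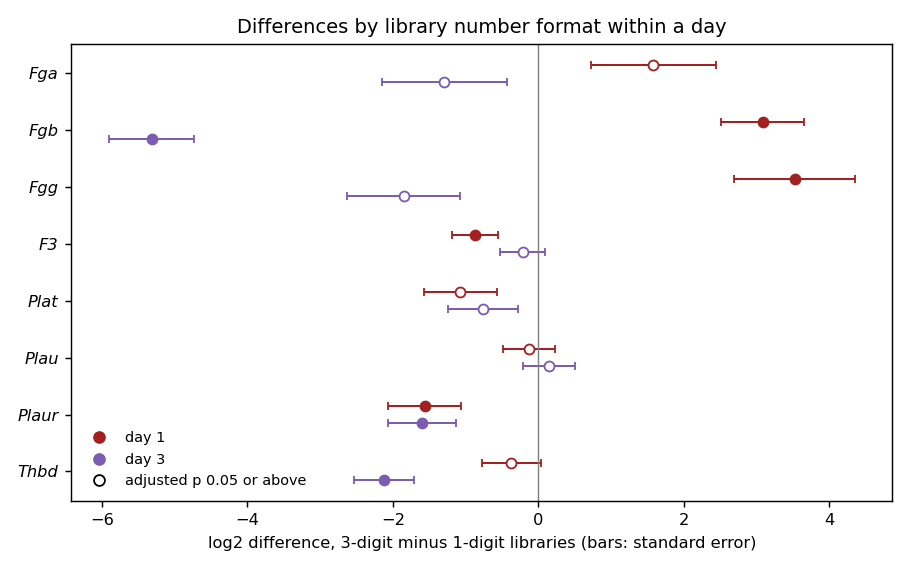
Log2 difference between 3-digit and 1-digit libraries (horizontal axis) of each gene at day 1 (2 against 3 libraries) and day 3 (3 against 2 libraries); bars are standard errors and open points have an adjusted p of 0.05 or above. Fgb and Fgg were on the right of 0 at day 1 and on the left at day 3, while Plaur was on the left on both days.

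All 4 libraries of day 0 have 1-digit numbers. In the fit of all 14 libraries by day and format, the 1-digit libraries of day 1 differed from day 0 in 6 of the 8 genes (58.5% of all genes, 28.9% higher) and those of day 3 in 7 of the 8 (53.7%, 28.6% higher), each one higher. Fga and Fgg were not among the 6 (1.15, adjusted p = 0.196, and 1.83, adjusted p = 0.0701), and Plau was not among the 7 (-0.24, adjusted p = 0.579). When the 1-digit libraries were fitted on their own, all 8 genes were higher at day 1 (61.3% of all genes changed), Fga with an adjusted p of 0.0192 and Fgg with 8.50e-04, and at day 3 again all but Plau (56.3%). Fgb was 6.73 times its day 0 level in the 1-digit kidneys of day 1 (95% exact interval 2.22 to 27.4, counting error only) and 180 times in those of day 3 (69.8 to 666). In the 3-digit kidneys the ratios were 58.4 at day 1 (22.3 to 217) and 4.35 at day 3 (1.38 to 18.0). With each format fitted on its own, Fgb was higher at day 3 than at day 1 among 1-digit libraries, by 4.67 on the log2 scale (adjusted p = 3.01e-04), and lower among 3-digit libraries (-3.74, adjusted p = 0.00368). Fgg was higher among 1-digit libraries (3.34, adjusted p = 1.25e-04), and its value among 3-digit libraries was -2.03 (adjusted p = 0.147). Fga was higher among 1-digit libraries (1.83, adjusted p = 0.00964), and its value among 3-digit libraries was -1.03 (adjusted p = 0.478). F3, Plau and Plaur fell from day 1 to day 3 in both formats, F3 by 1.80 and 1.12, Plau by 1.54 and 1.25 and Plaur by 1.52 and 1.55 in the 1-digit and 3-digit libraries.

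With the format as an added term, Plat and Thbd were also higher at day 3 than at day 0 (1.62, adjusted p = 0.00658, and 1.80, adjusted p = 0.00430), so that 7 of the 8 were, where 48.2% of all genes changed in that fit against 33.3% without the term. That term takes the format difference to be the same on both days, while for Thbd it was -0.37 at day 1 and -2.12 at day 3. In the 3-digit libraries of day 3 Thbd was at 13.4 to 31.5 CPM, against 17.8 to 23.4 at day 0. With the 3-digit libraries only of the later days, 7 of the 8 were higher at day 1 (42.9% of all genes changed), Plat being the exception (1.03, adjusted p = 0.112). At day 3, Fgg, F3 and Plaur were higher in those libraries, 3 of the 8 (34.0% of all genes). Between the later days, 6 of 8 genes changed in the 1-digit libraries (36.0% of all genes) and 5 of 8 in the 3-digit libraries (16.0%).

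Across the 14 libraries the 8 genes fell into patterns that did not follow the day alone. Fga and Fgg had a Pearson correlation of log2 CPM of 0.93, which was the same after the mean of each day was removed (0.93). Fgb followed Fgg (0.91, and 0.85 with the day means removed) and Fga (0.83 and 0.77). Plaur followed F3 (0.94 and 0.76) and Plat (0.92 and 0.83). Between the groups, Fgg and F3 had a correlation of 0.31, which was -0.54 with the day means removed, and Fga and F3 had 0.22 and -0.46, so that the sign turned once the days were set aside. Plau and Plat, the plasminogen activators, had 0.43 and -0.04. The libraries share their day and their format, so these values are given as a description only.

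**Figure D4:**
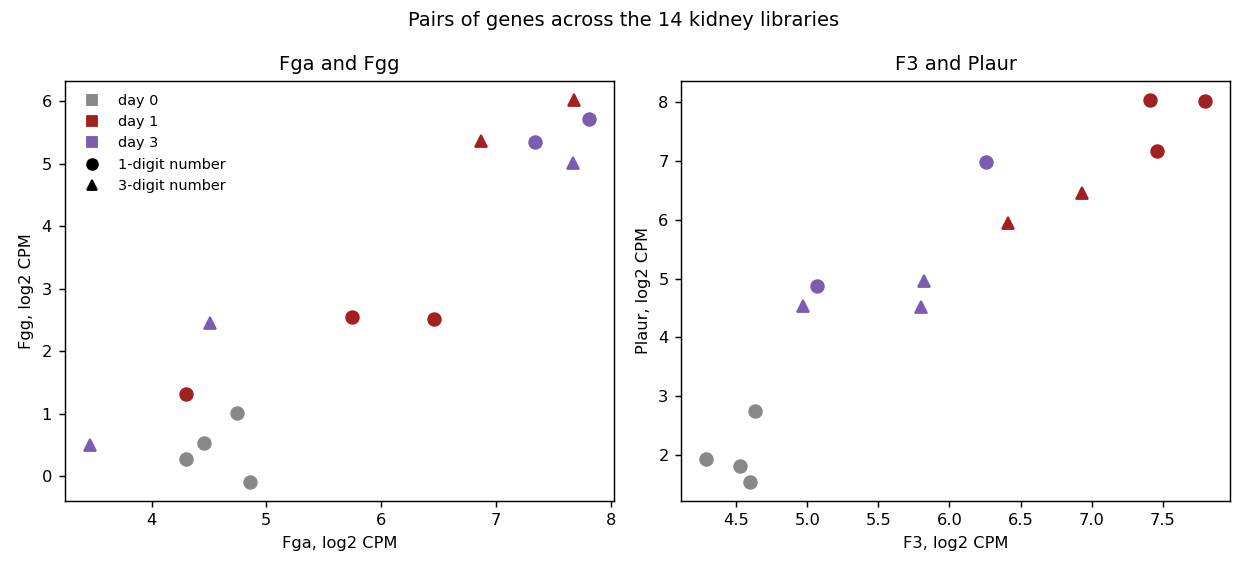
Level of Fgg against Fga and of Plaur against F3 (both axes log2 CPM) in the 14 libraries; colour gives the day and shape the number format. Fga and Fgg rose together among kidneys of the same day, with 5 kidneys of days 1 and 3 at the upper right, and F3 and Plaur ordered the kidneys mostly by day.

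The 3 genes with the most similar pattern to each member, by correlation of log2 CPM across the 14 libraries among 13326 genes with a mean of at least 1 CPM, were Lpcat3, Chp1 and Fgg for Fga (0.95, 0.94 and 0.93) and, for Fgg, they included Cmc1 and Vmp1 (each 0.97). For Fgb they were Ilvbl, Nexn and Btf3l4 (0.94, 0.94 and 0.93). F3 was nearest to Ier5, Smtn and Snhg17 (0.97, 0.97 and 0.96), and Thbd to Desi1, Tm4sf1 and Apold1 (0.97, 0.97 and 0.96). Plaur was nearest to Tnfrsf12a, Gprc5a and Fosl1 (each 0.99), Plat to Slc7a6, Fam167a and Nrip3 (each 0.94) and Plau to Ddx18, Eif4a3 and Ppm1g (0.95, 0.94 and 0.94). Fgg was the only member to appear among the nearest genes of another.

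The rest of the coagulation and fibrinolysis system was given by lists of genes drawn up from textbook knowledge, with counts from edgeR's test by day alone or, where the 1-digit libraries are named, from the fit by day and format. By day alone 42.1% of all genes changed at day 1 (23.3% higher) and 33.3% at day 3 (19.5% higher), which is the background of the counts of these lists and of the marker lists. Of 14 coagulation factors 9 were tested. At day 1, F13a1, the catalytic chain of the transglutaminase that crosslinks fibrin, rose (2.81, SE 0.77, adjusted p = 0.00981) and F8, the cofactor factor VIII, fell (-1.34, SE 0.45, adjusted p = 0.0264). At day 3 F13a1 (4.27, SE 0.79, adjusted p = 0.00142) and F10, factor X (3.35, SE 0.59, adjusted p = 0.00103), were higher, and F13b (-1.85) and Kng2 (-0.99), named after their values were seen, were lower. The median of the list was -0.10 at day 1 and -0.30 at day 3. By format, 1 of the 9 was higher and 2 lower in the 3-digit libraries at day 1, where 35.0% of all genes differed. At day 3 F8 (1.74, SE 0.43) and F13a1 (2.17, SE 0.62) were higher in them and 0 lower, where 18.5% of all genes differed. Prothrombin (F2) had at most 2 reads in a library and F7, the partner of tissue factor, at most 10, while F9 had 0 reads in all 14 libraries.

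Of 8 coagulation inhibitors tested, Procr, the endothelial protein C receptor, and Pros1, the protein S cofactor of activated protein C, were higher at day 1 (1.81, SE 0.32, and 1.36, SE 0.23) and at day 3 (1.64, SE 0.31, and 1.43, SE 0.23). Proc, protein C itself, was at 206 ± 9.94 CPM (SD, n = 4) at day 0 and was lower at day 3 (-1.72, SE 0.25, adjusted p = 3.14e-04). The other 6 inhibitors at day 1 and the other 5 at day 3 did not pass the test. Among 3 receptors cleaved by thrombin or related proteases, F2r rose by 2.17 (SE 0.39) and F2rl1 by 1.33 (SE 0.19) at day 1, and they were higher by 3.09 (SE 0.41) and 1.36 (SE 0.19) at day 3. In the 3-digit libraries of day 3, 1 of the 8 inhibitors, Procr (-1.09), and 2 of the 3 receptors, F2r (-1.30) among them, were lower and 0 higher, where 18.5% of all genes differed. In those of day 1, 1 inhibitor was higher and 1 lower, and 1 receptor was lower, where 35.0% differed.

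In the plasminogen system, 4 of 9 genes tested were higher at day 1, and at day 3, 6 were higher and 1 lower. At day 1, 0 were lower by day alone in edgeR's or DESeq2's test or at an unadjusted p under 0.05, while in the 1-digit libraries 6 were higher and 1, the plasminogen receptor Plgrkt, lower (-0.29, SE 0.11, adjusted p = 0.0414), where 58.5% of all genes changed. S100a10, which with Anxa2 forms a cell-surface docking site for plasminogen and Plat, rose at day 1 (3.05, SE 0.27), and Anxa2 was higher at day 3 (2.59, SE 0.24). Serpinf2, the plasmin inhibitor, named after its values were seen, was the gene that was lower at day 3 (-1.92, SE 0.53, adjusted p = 0.0139). It differed by format in opposite directions, by -1.25 at day 1 (SE 0.35, adjusted p = 0.0161) and 2.32 at day 3 (SE 0.37, adjusted p = 0.00384). At day 3 it was at 156 CPM in the 3-digit and 31.1 in the 1-digit libraries. Of the 9 genes, 2 were higher and 1 lower in the 3-digit libraries at day 1 and 1 higher and 3 lower at day 3, where 35.0% and 18.5% of all genes differed. Plasminogen itself (Plg) had at most 7 reads in a library.

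Of 9 fibrinogen-related genes and fibrin receptors tested, 8 were higher at day 1 and 7 at day 3, where 23.3% and 19.5% of all genes were higher. Itgam, the alpha chain of a leukocyte integrin that binds fibrin, rose by 3.02 (SE 0.61, adjusted p = 0.00168) and 4.64 (SE 0.64, adjusted p = 2.00e-04), and Itgb3, the beta chain of platelet and endothelial fibrinogen receptors, by 2.73 (SE 0.56, adjusted p = 0.00200) and 2.99 (SE 0.57, adjusted p = 0.00165). Of 10 acute-phase genes tested, 7 were higher at day 1 and 6 at day 3, against the same shares. In both lists 0 were lower on either day in edgeR's or DESeq2's test or at an unadjusted p under 0.05. Il6 and Saa1 had 0 reads in all day 0 libraries. Taking 3 reads over that group as the floor, Il6 was at least 141-fold higher at day 1 and at least 39.0-fold higher at day 3, and Saa1 at least 97.8-fold and 74.3-fold higher. Some of these bounds moved with 1 library. Without replicate 5 of day 1 that of Il6 was 90.1, without replicate 5 of day 3 it was 16.4, and without replicate 2 of day 1 that of Saa1 was 64.2. At day 1, the 3-digit libraries held Saa1 at 10.1 and 10.4 CPM and the 1-digit ones at 0.402 to 0.545 (log2 difference 4.37, SE 0.95, adjusted p = 0.00623), and Il6 at day 3 was at 0.0563 to 0.967 in the 3-digit and at 1.68 and 5.80 in the 1-digit libraries (log2 difference -3.10, SE 0.90, adjusted p = 0.0394). Of the acute-phase genes, Lbp (1.84), Orm2 (6.57) and Cp (1.71) were also higher in the 3-digit libraries at day 1 and Socs3 (-1.12) lower, so that 5 of 10 differed where 35.0% of all genes did, and at day 3 Il6 was the 1 of 10 that differed, where 18.5% did.

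**Figure D5:**
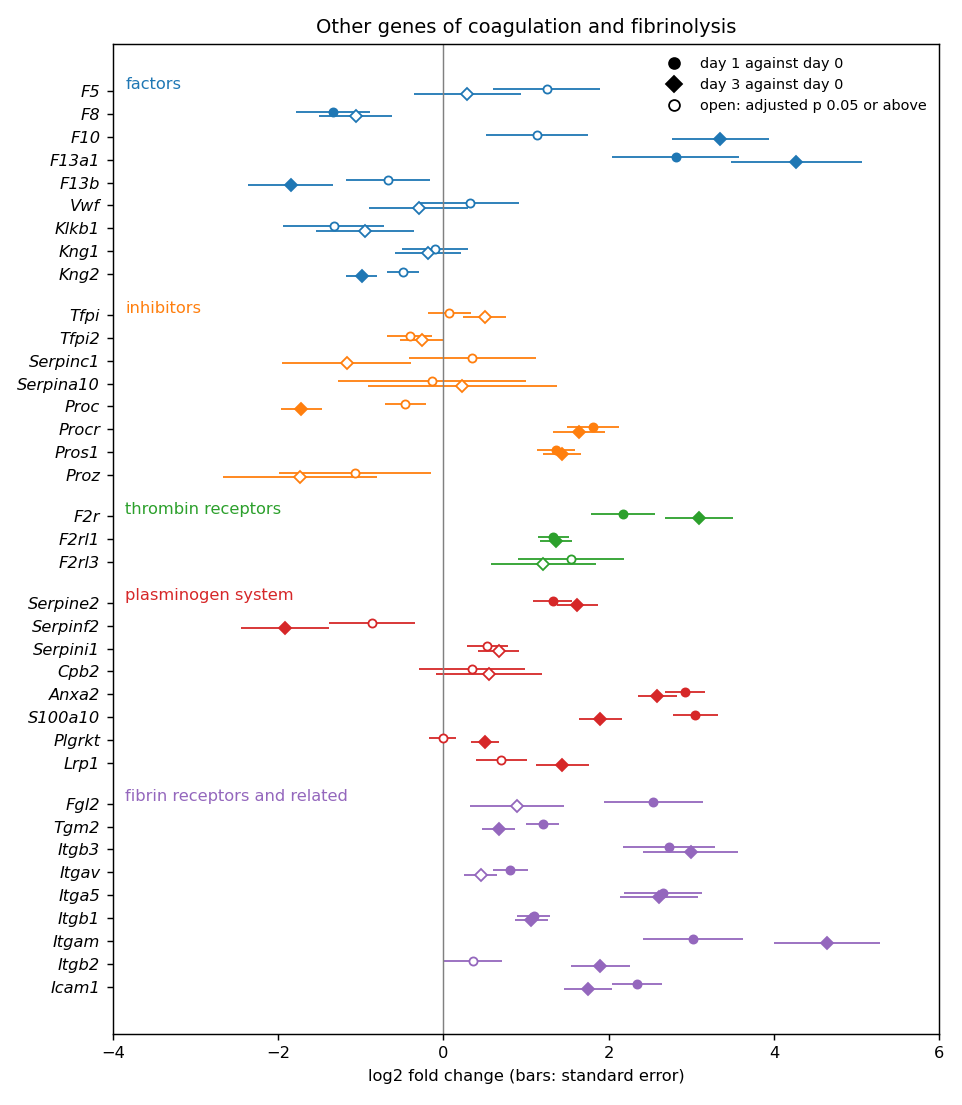
Log2 fold change (horizontal axis) of genes of 5 lists for day 1 (circles) and day 3 (diamonds) against day 0; bars are standard errors and open points have an adjusted p of 0.05 or above. The fibrin receptors were to the right of 0 while coagulation factors lay on both sides.

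Markers of cells that make or carry these products moved with some of the results. Of 7 hepatocyte markers tested, 1 was lower at day 1 (Apob, -5.45, SE 0.87, adjusted p = 3.62e-04) and 3 were lower at day 3, with Apob (-5.68, SE 0.88) and Apoh (-2.29, SE 0.29) farthest down. By day alone 0 were higher in edgeR's test on either day, where 1 at day 1 and 0 at day 3 were higher at an unadjusted p under 0.05 and in DESeq2's test. In the 1-digit libraries Alb, serum albumin, was higher at day 1 (2.46, SE 0.23, adjusted p = 3.74e-06) and at day 3 (1.57, SE 0.26, adjusted p = 2.91e-04), where 58.5% and 53.7% of all genes changed. In the same fit Apob was lower on both days (-8.17, SE 0.89, and -6.35, SE 0.91) and Apoh at day 3 (-2.48, SE 0.38), and the other markers tested did not pass. Of the list, 10 markers in all, the summed level was 129 to 323 CPM at day 0, 37.2 to 258 at day 1 and 47.0 to 111 at day 3. Their defining markers Alb and Apoa1 were at 4.32 and 0.178 CPM at day 0, 15.5 and 0.245 at day 1 and 6.27 and 0.425 at day 3, and Ahsg and Cps1 had at most 1 read in a library. Apob was at 73.9 ± 59.4 CPM (SD, n = 4) at day 0 and Ttr, which is also made outside the liver, at 99.0 CPM, and these made up most of the sum there. At day 1 the sum was 37.2 to 86.4 CPM in the 3-digit libraries, where Fga and Fgg were highest, and 180 to 258 in the 1-digit libraries, and Ttr, at 38.1 and 164 CPM, made up most of that contrast.

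Of 3 platelet and megakaryocyte genes tested, Pf4 and Ppbp rose at day 1 (3.33, SE 0.51, and 2.49, SE 0.77) and at day 3 (4.23, SE 0.52, and 2.55, SE 0.77). Itga2b passed on neither day by day alone. At day 1 it was lower in the 3-digit libraries (-1.85, SE 0.32, adjusted p = 0.00127) and, against day 0, higher in the 1-digit ones (1.03, SE 0.25, adjusted p = 0.00332). Gp1ba, Gp1bb and Gp9, with at most 1, 4 and 7 reads in a library, were not tested. All 5 neutrophil markers tested were higher at day 1 and at day 3, with a summed level of 1.33 to 2.07 CPM at day 0, 47.4 to 201 at day 1 and 19.3 to 408 at day 3. The defining markers S100a8 and S100a9 were at 0.268 and 0.492 CPM at day 0, 26.1 and 49.9 at day 1 and 43.1 and 61.4 at day 3. The highest sum, 408 CPM, was in replicate 5 of day 3, which was also the highest day 3 kidney for F3, Plat, Plaur and Thbd. It was likewise highest of day 3 in the sums of endothelial markers (942 CPM), fibrinogen-related genes and fibrin receptors (2082) and acute-phase genes (562), and it had the fewest reads on genes (12485579). Of 6 macrophage markers, 1 was higher (Cd68, 3.57, SE 0.44) and 1 lower (Csf1r, -1.65, SE 0.24) at day 1, and 2 were higher and 1 lower at day 3, with sums of 125 to 202 CPM at day 0, 72.0 to 127 at day 1 and 96.2 to 405 at day 3. At day 3 that sum was 215 to 405 CPM in the 3-digit and 96.2 and 108 in the 1-digit libraries, with 4 of the 6 higher in the 3-digit ones (Adgre1, 3.56, Lyz2, 2.48, C1qb, 2.10, and Csf1r, 0.93) and Cd68 lower (-1.23), where 18.5% of all genes differed, and at day 1 Lyz2 was higher in them (1.95). The sum of the 6 platelet genes was 5.52 to 6.70 CPM at day 0, 7.49 to 24.3 at day 1 and 11.4 to 24.2 at day 3. Itga2b, at a mean of 5.43 CPM, made up most of this sum at day 0. The part of these cells in the results was not tested.

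Of 8 endothelial markers, whose cells carry thrombomodulin, 2 were higher and 1 lower at day 1, with Cdh5 (1.54, SE 0.35) and Tek (-1.52, SE 0.38) farthest up and down. At day 3, 0 passed edgeR's test by day alone or DESeq2's, and 1 was higher at an unadjusted p under 0.05. In the 1-digit libraries 4 were higher and 2 lower at day 1, and at day 3, where Thbd was also higher, 7 of the 8 were higher, among them Pecam1 (1.26, SE 0.26, adjusted p = 0.00157) and Emcn (1.18, SE 0.29, adjusted p = 0.00392), where 53.7% of all genes changed. Their summed level was 376 to 478 CPM at day 0 and 476 to 620 at day 1, and at day 3 it was 234 to 417 in the 3-digit and 593 to 942 in the 1-digit libraries. At day 3, 5 of these 8 markers were lower in the 3-digit libraries, as was Thbd, where 8.22% of all genes were lower. The defining marker Pecam1 was at 48.0 ± 8.82 CPM (SD, n = 4) at day 0, 77.9 ± 12.4 (SD, n = 5) at day 1 and 76.3 ± 41.4 (SD, n = 5) at day 3, and Cdh5 at 25.7 ± 3.24, 74.7 ± 29.7 and 32.6 ± 16.4.

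Tubular injury markers, all 8 of which were higher at day 1 and 7 of 8 at day 3, had a summed level of 1322 to 1700 CPM at day 0. At day 1 it was 32733 to 38306 CPM in the 3-digit and 9478 to 17594 in the 1-digit libraries, and at day 3 it was 7063 to 34078 in the 3-digit and 37470 to 44969 in the 1-digit libraries. The 5 kidneys with the highest sums, replicates 1 and 2 of day 1 and replicates 1, 4 and 5 of day 3, are those with the highest Fga and Fgg. Spp1 made up most of this sum, with a mean of 16692 CPM at day 1 and 24523 at day 3. By format, 2 of the 8 markers differed at day 1, Havcr1 (5.01, SE 0.69, adjusted p = 3.70e-04) and Spp1 (1.49, SE 0.50, adjusted p = 0.0344), both higher in the 3-digit libraries, and 1 at day 3, Krt20 (-2.43, SE 0.76, adjusted p = 0.0417), while the values of Krt18, Krt20 and Sox9 at day 1 ran the other way (-0.37, -0.28 and -0.58) without passing. Proximal tubule markers, which define the main tissue of the sample, summed to 40435 to 45031 CPM at day 0, 17917 to 45893 at day 1 and 8395 to 18943 at day 3. Kap made up most of the sum at day 0 and day 1 (means of 29707 and 25993 CPM). Of the 8 markers 2 were lower at day 1 and 3 at day 3. At day 3, 4 were lower in DESeq2's test and 5 at an unadjusted p under 0.05. In the 1-digit libraries Lrp2 (-1.87) and Cubn (-1.40) were lower at day 1 and 6 of 8 were at day 3, where 58.5% and 53.7% of all genes changed. In these counts 0 were higher. At day 1 the proximal tubule sum was 17917 to 28772 in the 3-digit and 35399 to 45893 in the 1-digit libraries, and at day 3 it was 8395 to 18943 and 9009 to 10123. In the 3-digit libraries 4 of the 8 were lower at day 1 and 4 higher at day 3, where 35.0% and 18.5% of all genes differed, and in the day 1 minus day 3 format difference 6 of 8 passed, all below 0, where 17.6% of all genes did. Smooth muscle genes went the other way, with 5 of 5 higher in the 3-digit libraries at day 1, 3 lower at day 3 and 4 passing above 0 in that difference, as did fibroblast and pericyte genes, with 3 of 6, 2 and 4. Of 6 urothelial genes, Upk1b (5.28), Upk3b (3.69) and Krt5 (5.16) were higher in the 3-digit libraries at day 1, where their sums were 17.1 and 103 CPM against 5.04 to 8.69 in the 1-digit libraries. Of the fibroblast and pericyte genes 2 of 6 were higher at day 1 and 5 at day 3, of the smooth muscle genes 2 and 3 of 5, and of the 6 podocyte genes 1 was higher at day 3 and of the 6 urothelial genes 1 was lower. At day 1, edgeR's test by day alone called 0 of both lists, where 3 podocyte genes and 0 urothelial genes had an unadjusted p under 0.05 and DESeq2 called 1 and 0. In the 1-digit libraries of day 1, Podxl (0.64) was higher and Upk3b (-2.76) was lower. The part of these cells in the differences of the 8 genes was not tested.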

How the data were processed

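RNA from mouse kidney was sequenced after library preparation with an Illumina TruSeq kit. Per the submitters' processing notes, reads were trimmed with Trimmomatic and aligned with STAR to mm10, which is GRCm38. Tool versions, and which annotation was used, are not given in the sources used here. The deposited values are raw read counts per gene and strand that the authors made in STAR, and the strand column holding 98.5% to 98.7% of strand-assigned reads was used. Entries that name no gene (29.0% to 38.3% of reads) were left out.

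Low counts were removed by filterByExpr, libraries were scaled by TMM, and 1 model with a term per day, or per day and number format, was fitted to all 14 libraries with edgeR 4.0.16 (limma 3.58.1, R 4.3.3) by its quasi-likelihood test. An adjusted p (Benjamini-Hochberg) under 0.05 was the threshold. Log2 CPM used a prior count of 2. Levels per kilobase used the union of annotated exons in GENCODE's annotation of GRCm38. Intervals and floors of 3 counts cover counting error only. No replicate pair agreed within counting noise (chi-square over its degrees of freedom at least 5.82).

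The 8 genes and the 17 lists (137 genes) were chosen with earlier results of these data known. All 8 genes are described, with the 2 called genes of the largest change per list against day 0, the first 2 genes of cell type lists relevant here and the 3 genes most like each member, except for genes not reported here. Scripts were tested on simulated data. As alternatives, the fits were repeated with unstranded counts, RLE size factors, library totals, other low-count filters, a minimum log2 fold change of 1, DESeq2 1.42.0, only the days compared, a replicate block, the number format as a term or within each format, and with each library left out. Motifs were searched in the 250 bases before each start, and the transcribed part of the RefSeq windows was left out.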

Additional observations from a re-analysis of the deposited data

Results flagged for a closer look

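In 3 of 24 groups of libraries, 1 gene on 1 day each, 1 library stood apart from the others of its day by Dixon's test, where chance gives about 1 in 20 groups, or 1.20. Plat was at 7.20 log2 CPM in replicate 4 of day 0, and the other 3 libraries were at 5.26 to 5.45. The same library was also highest of day 0 in the summed urothelial genes (55.1 CPM) and hepatocyte markers (323 CPM). In replicate 5 of day 3, Plat was at 8.00 against 6.76 to 7.04 in the other 4, and Plaur was at 6.98 against 4.51 to 4.96.

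The difference between 3-digit and 1-digit libraries, day 1 minus day 3, departed from 0 in edgeR's quasi-likelihood test for 3 of the 8 genes examined. It was 8.41 on the log2 scale for Fgb (adjusted p = 3.90e-04), 5.38 for Fgg (adjusted p = 0.00709) and 1.75 for Thbd (adjusted p = 0.0491), and the last was lost with RLE size factors (1.70, adjusted p = 0.0560).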

How the results depend on the processing

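Of 629 values recomputed under other processing, 590 kept their direction and their side of the threshold, 19 newly passed it, 10 no longer did, 7 reversed and 3 counts moved by over 1.5 times. Of 1008 values with 1 library left out, 913 kept both, 17 newly passed, 51 no longer did, 21 reversed and 6 counts moved. Within 1 number format, the members changed from day 1 to day 3 numbered 6 (1-digit) and 5 (3-digit), against 3 in all libraries, and 3 against 5 differed between day 3 and day 0 in 3-digit libraries. In these the log2 fold changes from day 1 to day 3 reversed for Fga (-1.03), Fgb (-3.74) and Fgg (-2.03). The format difference of Plaur, day 1 minus day 3, was -0.01 with RLE size factors and with DESeq2. With library totals in place of TMM, Plau was at 0.01 for day 3 against day 0 and at 0.07 for the format difference at day 1, while the median of all genes shifted by 0.14 and 0.21. The causes were not tested. Fgb could not be tested with a minimum of 10 counts in every library.

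With each library left out, the count of members differing by format was 2 to 5 for day 1 and 1 to 5 for day 3. Of values that reversed, Fgg ranged from -0.28 to 0.93 for day 3 against day 1, and Plau from -0.30 to 0.00 for day 3 against day 0 (-0.73 to 0.15 in 1-digit libraries). The format difference at day 1 ranged from -0.89 to 0.00 for Thbd and from -0.34 to 0.14 for Plau, and at day 3 from -0.69 to 0.49 for F3 and from -0.24 to 0.65 for Plau. Its difference between the days ranged from -1.36 to 0.74 for Plaur, -0.86 to 0.09 for Plat and -0.78 to 0.10 for Plau.

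Whether equal replicate numbers pair the libraries is not known. Same-numbered libraries correlated over 0.1 in 4 of 13 pairs (-0.17 to 0.26). Some of these pairs mix the 2 number formats, so the values cannot decide it. With the number as a replicate block, 6 members differed between day 1 and day 0, 4 between day 3 and day 0 and 4 between day 3 and day 1, against 7, 5 and 3, where 36.1%, 28.7% and 14.3% of all genes did, against 42.1%, 33.3% and 15.9%. Fgg at day 1 (3.64, adjusted p = 0.0511) and Fga (1.70, 0.165) and Fgb (5.43, 0.0519) at day 3 did not pass, and Plat at day 3 (1.08, 0.0296) and Thbd from day 1 to day 3 (-1.36, 0.0255) did. Depth limits Fgb most, with at most 2 reads in a day 0 library.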
